A study of Homo sapiens with 2 samples.

Results

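The 6 genes described here encode glutamate and neutral amino acid transporters, SLC1A1, SLC1A2, SLC1A3, SLC1A4, SLC17A6 and SLC17A7. They were taken by gene name from the 62704 genes counted in each of 2 split-seq libraries of cerebral organoids, 1 of whole cells and 1 of nuclei. The organoids were grown from H9, a human embryonic stem cell line, so the values come from 1 genetic background. The cell library pooled control organoids (CO), organoids that were taken apart at day 45 and allowed to reaggregate (DISS), and organoids held in a 3% agarose gel from day 13 (CONS), collected between days 45 and 70. The nucleus library was the day 45 control experiment, whose label names control, dissociated and embedded material. The paper describes these nuclei as taken from whole and from dissociated day 45 CO, so the embedded material of the label is not accounted for. Every barcode carried the same sample name, so neither condition nor day could be read from the files, and each library was 1 sample without a replicate. No test between conditions was possible, and each value below describes its library with a 95% exact interval for counting error.

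Glutamate is cleared from the space around cells by the sodium-coupled transporters of the SLC1 family, and it is loaded into synaptic vesicles by the proton-driven transporters of the SLC17 family. SLC1A3 (also called EAAT1 or GLAST) and SLC1A2 (EAAT2 or GLT-1) are the transporters of astrocytes, SLC1A3 is also a long-used marker of radial glia (RG), and SLC1A1 (EAAT3) is the neuronal member. SLC1A4 (ASCT1) carries alanine, serine and cysteine rather than glutamate. SLC17A7 (VGLUT1) and SLC17A6 (VGLUT2) mark excitatory neurons, the former mostly in the mature cortex and the latter mostly in subcortical and early-born neurons.

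In GRCh38, SLC1A1 lies on chromosome 9 from 4490468 to 4587469 on the plus strand. SLC1A2 lies on chromosome 11 from 35251205 to 35420063 on the minus strand, and SLC17A6 on the same chromosome from 22338381 to 22379503 on the plus strand. SLC1A3 lies on chromosome 5 from 36596588 to 36688334 on the plus strand. SLC1A4 lies on chromosome 2 from 64988477 to 65023865 on the plus strand, and SLC17A7 on chromosome 19 from 49429401 to 49442360 on the minus strand. SLC17A7 was the only member that overlapped no other annotated gene in GENCODE release 44. SLC1A1 shared bases with the opposite-strand coding gene SPATA6L, SLC1A2 and SLC1A3 with antisense transcripts that include SLC1A2-AS1 and SLC1A3-AS1, and SLC1A4 lay inside the opposite-strand transcript LINC02245. The sources used here do not say whether reads were counted by strand, so reads of these partners cannot be told apart from reads of the members.

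RefSeq promoter windows of 300 bases (GRCh38, 250 bases before a transcript start and 50 from it on) were found for 5 of the 6 genes, SLC1A2 being the one without an entry. The windows of SLC1A3, SLC17A6 and SLC17A7 are shown because these genes mark the opposite ends of the RG to neuron comparison, with SLC1A3 read at the start of its MANE Select transcript. Capitals mark the GC box, GGGCGG, and the E-box, CANNTG, the core site of basic helix-loop-helix factors, both searched on both strands.
SLC1A3, chr5:36606356-36606655, plus strand: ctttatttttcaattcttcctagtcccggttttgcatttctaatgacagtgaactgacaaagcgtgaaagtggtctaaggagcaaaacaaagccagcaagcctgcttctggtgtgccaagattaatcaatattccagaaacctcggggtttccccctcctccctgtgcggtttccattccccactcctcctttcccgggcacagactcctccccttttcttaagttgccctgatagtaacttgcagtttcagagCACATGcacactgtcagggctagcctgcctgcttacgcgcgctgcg
SLC17A6, chr11:22338131-22338430, plus strand: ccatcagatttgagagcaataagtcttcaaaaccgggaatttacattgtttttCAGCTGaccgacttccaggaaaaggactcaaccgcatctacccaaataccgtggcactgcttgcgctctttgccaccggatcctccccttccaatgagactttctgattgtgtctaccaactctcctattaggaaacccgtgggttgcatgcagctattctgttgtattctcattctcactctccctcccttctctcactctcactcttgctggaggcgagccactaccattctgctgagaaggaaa
SLC17A7, chr19:49441478-49441777, minus strand: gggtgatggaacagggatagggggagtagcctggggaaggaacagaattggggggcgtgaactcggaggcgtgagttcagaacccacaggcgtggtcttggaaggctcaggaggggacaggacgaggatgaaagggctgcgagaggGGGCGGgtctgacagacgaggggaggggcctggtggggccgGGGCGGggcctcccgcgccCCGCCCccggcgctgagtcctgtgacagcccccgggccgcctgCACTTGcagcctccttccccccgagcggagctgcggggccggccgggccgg
The SLC17A7 window held 3 GC boxes and 1 E-box with a GC content of 71.7%, against a median of 58.7% over all 35116 windows of this length. The SLC17A6 window held no GC box and 1 E-box, of the form CAGCTG, with a GC content of 48.0%. The SLC1A3 window held no GC box and 1 E-box with a GC content of 50%. Of all windows, 45.0% held a GC box, 68.7% an E-box and 17.9% the form CAGCTG, so that matches of this kind were common. The windows of SLC1A1 and SLC1A4 at their MANE Select starts held 3 and 4 GC boxes, respectively, and no E-box.

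Kept barcodes had over 500 genes, over 1000 transcripts and at most 20% mitochondrial counts, which left 20178 cells (median 2615 transcripts) and 14228 nuclei (median 3890). Each barcode was thinned to 1000 transcripts and placed in a class by 10 RG, 10 neuronal and 7 intermediate progenitor (IP) markers, none of them a transporter. This gave 3638 RG-marker, 287 IP-marker and 4265 neuron-marker cells, and 3268 RG-marker, 47 IP-marker and 3331 neuron-marker nuclei. A further 3365 cells and 739 nuclei carried both lists about equally. The summed RG list stood at 38.3 counts per 10000 transcripts in RG-marker cells and 15.9 in neuron-marker cells, and at 38.3 and 10.1 in nuclei, and the neuronal list at 11.9 and 45.0 in cells and 8.20 and 56.7 in nuclei. Neuron-marker cells thus held more RG-marker RNA than neuron-marker nuclei. In RG-marker barcodes the 6 astrocyte markers summed to 0.239 counts per 10000 in cells and 0.144 in nuclei, where the astrocyte water channel AQP4 had 6 counts in cells and 0 in nuclei. The libraries shared 99 barcode combinations, which are well names and not cells.

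SLC1A3 was highest in RG-marker barcodes among the marker classes. Its pooled level was 2.83 counts per 10000 (2.77 to 2.90) in RG-marker cells and 1.02 (0.987 to 1.05) in neuron-marker cells. Across the 8 sub-libraries, which split 1 pool of cells for sequencing and so give technical spread, the RG-marker level ran from 2.67 over a median of 2.77 to 3.14, and the neuron-marker level from 0.883 over 1.00 to 1.22. The ranges did not overlap, and the log2 ratio of RG-marker over neuron-marker level was 1.47 (1.42 to 1.53), or 2.78-fold. In nuclei the RG-marker level was 3.04 (3.02 and 3.06 in the 2 sub-libraries) and the neuron-marker level 0.324 (0.309 and 0.336). The log2 ratio there was 3.23 (3.10 to 3.36), or 9.38-fold, and it ranged from 2.50 with a margin of 1 marker to 4.08 over clusters. Choroid plexus-marker barcodes came after RG-marker and both-marker barcodes, at 1.38 in cells and 1.32 in nuclei, and were above neuron-marker barcodes in 16 of 18 cell wells and 12 of 12 nucleus wells. The wider ratio in nuclei came with a lower neuron-marker level, while the pooled RG-marker levels of the libraries were close. SLC1A3 RNA was also in barcodes of 10 to 100 transcripts, which stand for free RNA. Its level there was 1.78 counts per 10000 in the cell library and 1.47 in the nucleus library. The neuron-marker and choroid plexus-marker levels of SLC1A3 were below the free-RNA level in both. How much free RNA added to these levels was not tested.

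The same direction held across first-round wells, the wells of the first barcoding plate, which hold separate aliquots of unknown condition. In the 32 wells with at least 20 RG-marker and 20 neuron-marker cells, SLC1A3 lay between 1.38 and 6.02 (median 2.87) in RG-marker cells and between 0.167 and 2.00 (median 0.711) in neuron-marker cells. RG-marker cells were higher in 32 of 32 wells, although the lowest RG-marker wells lay under the highest neuron-marker wells. In the 12 nucleus wells it lay between 1.55 and 5.13 (median 2.27) in RG-marker and between 0 and 0.673 (median 0.234) in neuron-marker nuclei, without overlap. After thinning to equal depth, SLC1A3 was seen in 21.4% of RG-marker cells and 10.8% of neuron-marker cells, and in 22.8% and 1.86% of nuclei. Without thinning the shares were 52.5% and 28.0% of cells and 50.3% and 8.77% of nuclei, at median depths of 3454.5 and 2929 transcripts in cells and 3665.5 and 4131 in nuclei.

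SLC1A2, the main astrocyte transporter of the adult brain, followed the neuron-marker barcodes. In cells its level was 2.15 counts per 10000 (2.10 to 2.20) in neuron-marker and 0.637 (0.608 to 0.667) in RG-marker barcodes. The sub-libraries ran from 1.94 over 2.12 to 2.39 in neuron-marker cells and from 0.542 over 0.626 to 0.799 in RG-marker cells, again without overlap. In nuclei the neuron-marker level was 3.12 (3.12 and 3.13 by sub-library) against 0.334 (0.324 and 0.345) in RG-marker nuclei. The log2 ratio of RG-marker over neuron-marker level was -1.75 (-1.83 to -1.68) in cells and -3.22 (-3.36 to -3.09) in nuclei, so that neuron-marker barcodes were 3.37-fold and 9.35-fold higher. Over clusters the ratio in nuclei was -3.88. Neuron-marker levels were higher in 32 of 32 cell wells and in 12 of 12 nucleus wells. In nuclei the wells spanned 1.40 to 4.00 in the neuron-marker and 0.0552 to 0.551 in the RG-marker class and did not overlap. SLC1A2 was seen in 17.4% of thinned neuron-marker cells against 5.66% of RG-marker cells, and in 24.2% against 2.36% of nuclei. The RG-marker levels were below the level of free RNA, which was 1.22 counts per 10000 in the cell library and 1.08 in the nucleus library.

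SLC1A1, which also carries cysteine into neurons, was higher in neuron-marker than in RG-marker barcodes, at 0.392 (0.372 to 0.413) against 0.122 (0.109 to 0.135) counts per 10000 in cells. Sub-libraries ran from 0.328 to 0.468 in neuron-marker cells and from 0.0617 to 0.166 in RG-marker cells. In nuclei the levels were 0.591 and 0.0735, with sub-library values of 0.552 and 0.640 against 0.0712 and 0.0761. The log2 ratios were -1.69 (-1.86 to -1.52) and -3.01 (-3.31 to -2.72). The free-RNA levels were 0.258 counts per 10000 in the cell library and 0.338 in the nucleus library, above the RG-marker levels. Neuron-marker cells were higher in 31 of 32 wells and neuron-marker nuclei in 12 of 12. SLC1A1 was not limited to neurons among the classes. Choroid plexus-marker barcodes, which carry TTR and other genes of this secretory epithelium, held 0.351 (0.327 to 0.376) counts per 10000 in cells and 0.553 (0.493 to 0.618) in nuclei. The log2 ratio of neuron-marker over choroid plexus-marker level was 0.16 (0.03 to 0.29) in cells, with sub-library values from -0.13 to 0.52, and 0.10 (-0.09 to 0.28) in nuclei, so the spread between sub-libraries held 0 in cells, although neuron-marker cells were higher in 14 of 18 wells and neuron-marker nuclei in 7 of 12.

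SLC1A4 did not separate RG-marker from neuron-marker barcodes. Its levels in RG-marker, IP-marker and neuron-marker cells were 0.159, 0.174 and 0.192 counts per 10000, and 0.189, 0.265 and 0.216 in nuclei. The free-RNA levels were 0.163 in the cell library and 0.221 in the nucleus library, above RG-marker cells and above RG-marker and neuron-marker nuclei. The log2 ratio of RG-marker over neuron-marker level was -0.28 (-0.45 to -0.10) in cells and -0.19 (-0.42 to 0.04) in nuclei. Sub-library ratios ran from -1.05 to 0.08 in cells, RG-marker levels were higher in 15 of 32 cell wells and 4 of 12 nucleus wells, and the sign turned to 0.02 and 0.26 when the thinned counts were used. The highest of the main classes in cells was the choroid plexus-marker class at 0.25 (0.230 to 0.271), where the log2 ratio of RG-marker over choroid plexus-marker level was -0.65 (-0.84 to -0.47), negative in each sub-library (-1.10 to -0.05), and the choroid plexus-marker level was higher in 15 of 18 wells. In nuclei the class stood at 0.168 (0.136 to 0.206), the lowest of the classes plotted here.

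In nuclei the vesicular transporters had the widest ratios of the members. In cells SLC17A7 had the widest, although with wells weighted equally SLC17A6 and SLC17A7 were both at -2.12. The place of SLC17A6 in cells depended on the setting. SLC17A7 stood at 0.599 counts per 10000 (0.574 to 0.626) in neuron-marker cells and 0.128 (0.115 to 0.142) in RG-marker cells, with sub-library ranges of 0.542 to 0.658 and 0.0835 to 0.170. In nuclei it stood at 0.670 (0.602 and 0.724 by sub-library) and 0.0324 (0.0316 and 0.0331). The log2 ratios were -2.23 (-2.39 to -2.06) and -4.37 (-4.82 to -3.95), equal to 4.68-fold and 20.7-fold higher levels in neuron-marker barcodes. In nuclei it was -5.21 with a margin of 3 markers and -5.37 over clusters. Neuron-marker cells were higher in 31 of 32 wells, the other being at 0 in both classes, and neuron-marker nuclei in 12 of 12. SLC17A7 was seen in 5.30% of thinned neuron-marker cells against 0.935% of RG-marker cells, and in 6.99% against 0.306% of nuclei. RG-marker levels in both libraries were under the free-RNA levels of 0.291 and 0.196 counts per 10000.

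SLC17A6 was the least counted member, with 115 counts in RG-marker cells and 28 in RG-marker nuclei. Its level was 0.149 (0.136 to 0.162) in neuron-marker cells against 0.0408 (0.0337 to 0.0490) in RG-marker cells, and 0.385 (0.356 to 0.415) against 0.0189 (0.0125 to 0.0273) in nuclei. Sub-library values ran from 0.0871 to 0.190 against 0.0167 to 0.0784 in cells, and were 0.373 and 0.394 against 0.0115 and 0.0254 in nuclei. The log2 ratios were -1.87 (-2.17 to -1.57) and -4.35 (-4.95 to -3.80). In cells the ratio was -0.90 with thinned counts and -1.28 with a margin of 1 marker, so that it was then no wider than that of SLC1A1 (-1.68 and -1.28), and in nuclei it was -4.97 with a margin of 3 markers and -5.06 over clusters. The RG-marker levels lay under the free-RNA levels of 0.0943 and 0.144 counts per 10000. RG-marker cells were at 0 in 14 of 32 wells, and neuron-marker levels were higher in 30 of 32 cell wells and 12 of 12 nucleus wells. The highest class for this gene was the Cajal-Retzius-marker class, named for early-born neurons that carry RELN and TP73. It stood at 0.445 (0.343 to 0.567) in cells and 0.987 (0.816 to 1.18) in nuclei. In cells this class held the RG list at 18.1, the neuronal list at 29.4 and the division list at 8.04 counts per 10000. Neuron-marker cells held these at 15.9, 45.0 and 4.50. In nuclei the class held the RG list at 8.03, against 10.1 in neuron-marker nuclei. For SLC17A6 the log2 ratio of neuron-marker over Cajal-Retzius-marker level was -1.58 (-1.95 to -1.18) in cells and -1.36 (-1.64 to -1.06) in nuclei. SLC17A7 had the opposite order between these classes, at 0.253 and 0.202 in Cajal-Retzius-marker barcodes. Its log2 ratios of neuron-marker over Cajal-Retzius-marker level were 1.24 (0.78 to 1.75) and 1.73 (1.15 to 2.37). By well, Cajal-Retzius-marker nuclei were higher for SLC17A6 in 5 of 6 wells and lower for SLC17A7 in 6 of 6, while 1 cell well could be compared and had neuron-marker cells higher for both genes. The cell values of this class rest on 151 barcodes, of which 1 gave 29.2% of the SLC17A6 counts and 1 gave 43.2% of the SLC17A7 counts; in nuclei (253 barcodes) these shares were 4.27% and 8.33%.

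**Figure D1:**
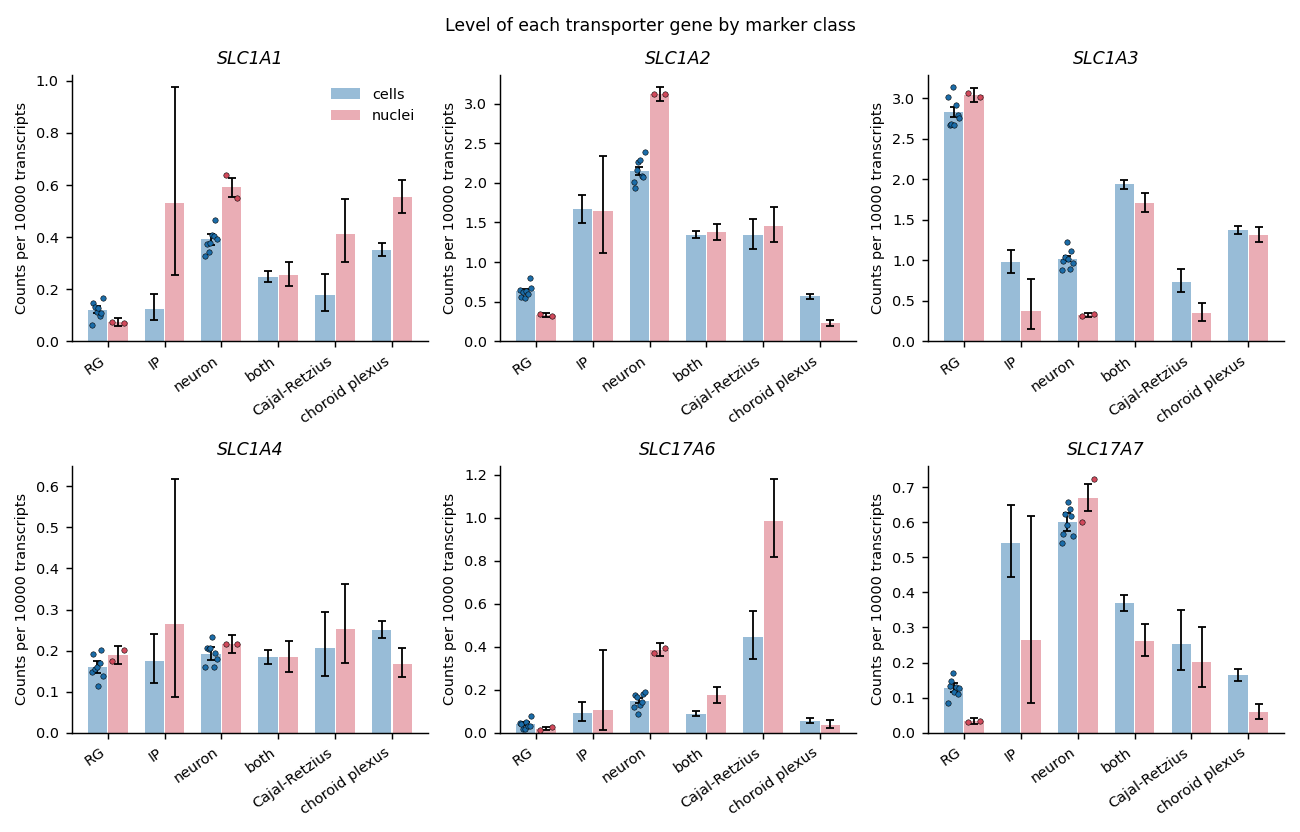
Pooled level of each transporter gene (counts per 10000 transcripts) in 6 marker classes of the cell library (blue) and the nucleus library (red). Bars are pooled levels, error bars 95% exact Poisson intervals and points the sub-libraries of the RG-marker and neuron-marker classes. SLC1A3 is highest in RG-marker barcodes (2.83 and 3.04), SLC1A2 in neuron-marker barcodes (2.15 and 3.12) and SLC17A6 in Cajal-Retzius-marker barcodes (0.445 and 0.987).

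Set against all genes with at least 20 counts in the RG-marker and neuron-marker classes, the members were more often on the neuronal side. Of 28107 genes in cells, 5.65% were at least 2 times higher in RG-marker cells and 5.92% at least 2 times higher in neuron-marker cells. SLC1A3 was 1 of 6 members past this fold on the RG side, and SLC1A1, SLC1A2, SLC17A6 and SLC17A7 were the 4 of 6 on the neuronal side, of which SLC17A6 fell short of the fold with thinned counts (-0.90). Of 20438 genes in nuclei, 15.3% were past the fold on the RG side and 11.5% on the neuronal side, with the same 1 and 4 members. The median log2 ratio was -1.72 over the members and 0.0017 over all genes in cells, and -3.11 and 0.16 in nuclei.

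**Figure D2:**
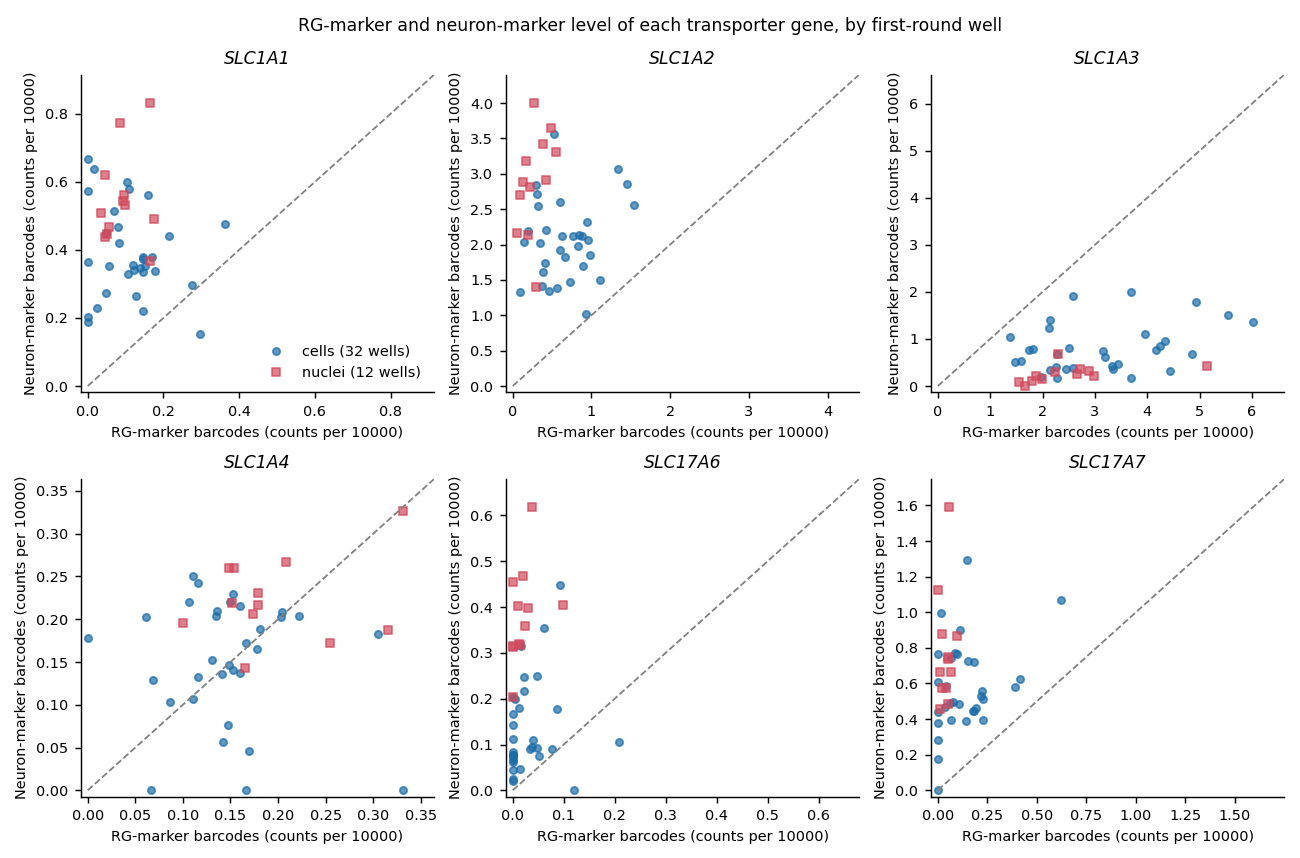
Level of each transporter gene in RG-marker barcodes (x axis) and neuron-marker barcodes (y axis) of each first-round well, in counts per 10000 transcripts, for 32 cell wells (circles) and 12 nucleus wells (squares). The dashed line marks equal levels. For SLC1A3 all wells lie below the line, for SLC1A2 all lie above it, and for SLC1A4 they scatter on both sides, with 15 of 32 cell wells and 4 of 12 nucleus wells below.

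IP-marker barcodes, which carry EOMES and other genes of the transit between RG and neurons, held less SLC1A3 and more SLC1A2 and SLC17A7 than RG-marker barcodes. SLC1A3 stood at 0.978 counts per 10000 (0.848 to 1.12) in IP-marker cells, which was 2.90-fold below RG-marker cells and within counting error of neuron-marker cells (log2 ratio of IP-marker over neuron-marker level -0.06, -0.27 to 0.14). This SLC1A3 level was under the free-RNA level of 1.78. SLC17A7 stood at 0.540 (0.444 to 0.650), 4.21-fold above RG-marker cells and also within counting error of neuron-marker cells (-0.15, -0.44 to 0.12). SLC1A2 stood at 1.67 (1.5 to 1.85), above RG-marker cells (log2 ratio of RG-marker over IP-marker level -1.39, -1.56 to -1.22) and below neuron-marker cells (-0.36, -0.52 to -0.21). SLC1A1, at 0.125 (0.0819 to 0.184), was close to the RG-marker level and like it under the free-RNA level (log2 ratio -0.04, -0.62 to 0.59). SLC17A6, at 0.0916 (0.0551 to 0.143) from 19 counts, was under its free-RNA level of 0.0943. Its log2 ratios were -1.17 (-1.87 to -0.38) for RG-marker over IP-marker level and -0.70 (-1.44 to -0.04) for IP-marker over neuron-marker level, while by well IP-marker cells were higher than RG-marker cells in 3 of 5 and higher than neuron-marker cells in 2 of 5. Between sub-libraries the log2 ratio of RG-marker over IP-marker level ran from -2.04 to 0.04 for SLC1A2, so that 1 of them showed no excess in IP-marker cells. The log2 ratio of IP-marker over neuron-marker level ran from -1.82 to 0.41 for SLC1A2, from -0.70 to 0.31 for SLC1A3 and from -0.75 to 0.89 for SLC17A7, so none of these differences was larger than the technical spread. Only 5 wells held at least 20 barcodes of the classes, and SLC1A1 and SLC1A2 were lower in IP-marker than in neuron-marker cells in 5 of 5, while SLC1A3 was higher in 5 of 5. IP-marker cells also held the neuronal list at 29.6 counts per 10000. The 47 IP-marker nuclei held 31 counts of SLC1A2, 10 of SLC1A1, of which 1 nucleus gave 60.0%, 7 of SLC1A3, 5 each of SLC1A4 and SLC17A7, and 2 of SLC17A6. The intervals of the log2 ratio of RG-marker over IP-marker level left out 0 for SLC1A2 (-2.30, -2.82 to -1.73), SLC1A3 (3.03, 1.99 to 4.35), SLC1A1 (-2.85, -3.78 to -1.75) and SLC17A7 (-3.03, -4.36 to -1.35). In the larger IP-like nucleus cluster described below, SLC1A1 lay under the range of the RG-like clusters and SLC17A7 near the top of it. SLC17A7 in IP-marker nuclei stood below neuron-marker nuclei (log2 ratio of IP-marker over neuron-marker level -1.34, -2.96 to -0.11); in cells that interval held 0, the difference between the libraries was not tested, and no well held enough of these nuclei for a comparison.

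Within the RG-marker class, the level of SLC1A3 was lower in dividing barcodes. RG-marker cells with at least 2 division markers (991 barcodes) held 2.18 counts per 10000 against 3.27 in those with none (1703 barcodes), a log2 ratio of -0.58 (-0.67 to -0.50), and the dividing level was the higher in 3 of 15 wells. In nuclei the levels were 2.28 (530 barcodes) and 3.33 (2143 barcodes), a log2 ratio of -0.55 (-0.67 to -0.42), with the dividing level higher in 1 of 11 wells. The other members were near or under their free-RNA levels in these barcodes, and their values are given without reading a change in expression. SLC1A2 stood at 0.545 in dividing and 0.639 in non-dividing RG-marker cells (log2 ratio -0.23, -0.40 to -0.06) and at 0.216 and 0.354 in nuclei (-0.72, -1.14 to -0.32). SLC1A1 stood at 0.0789 and 0.132 in cells (-0.74, -1.19 to -0.31) and at 0.0247, from 7 counts, and 0.0938 in nuclei. SLC17A7 had a ratio of -0.81 (-1.25 to -0.38) in cells and 0.18 (-1.03 to 1.26) in nuclei, the last from 10 and 28 counts with an interval that held 0. For SLC1A4 and SLC17A6 the intervals of this ratio held 0 in both libraries. RG-marker barcodes with an outer RG marker (HOPX, FAM107A, MOXD1 or TNC) were few, 186 cells and 78 nuclei. Their SLC1A3 level was 3.03 against 2.82 in other RG-marker cells (log2 ratio 0.10, -0.04 to 0.24) and 4.25 against 3.01 in nuclei (0.50, 0.27 to 0.72), so a higher level was seen in nuclei beyond counting error and not in cells. No well held enough of these nuclei for a comparison by well.

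The neuron-marker level of SLC1A3 varied with depth. Below 10000 transcripts it was lower in deeper barcodes of the cell library and higher in deeper barcodes of the nucleus library, and in both it was higher above 10000 than in the bin before. In cells it was 1.63 counts per 10000 in neuron-marker barcodes of 1000 to 2000 transcripts, 1.15 from 2000 to 5000, 0.697 from 5000 to 10000 and 1.02 above 10000. In nuclei the same bins held 0.110, 0.199, 0.226 and 0.684, the highest value being that of the deepest barcodes. The RG-marker level of SLC1A3 varied less, from 2.44 to 3.14 in cells and from 2.31 to 3.42 in nuclei. SLC1A2 stayed higher in neuron-marker barcodes in each bin, at 1.77, 1.74, 2.25 and 2.21 against 0.812, 0.624, 0.579 and 0.638 in cells. SLC17A7 in neuron-marker nuclei was highest in the shallowest bin, at 1.06, and lowest in the deepest, at 0.482. Barcodes that hold more than 1 cell are among those of high depth; the doublet caller run here, Scrublet, did not work on these libraries, so the part of doublets in these values was not tested.

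**Figure D3:**
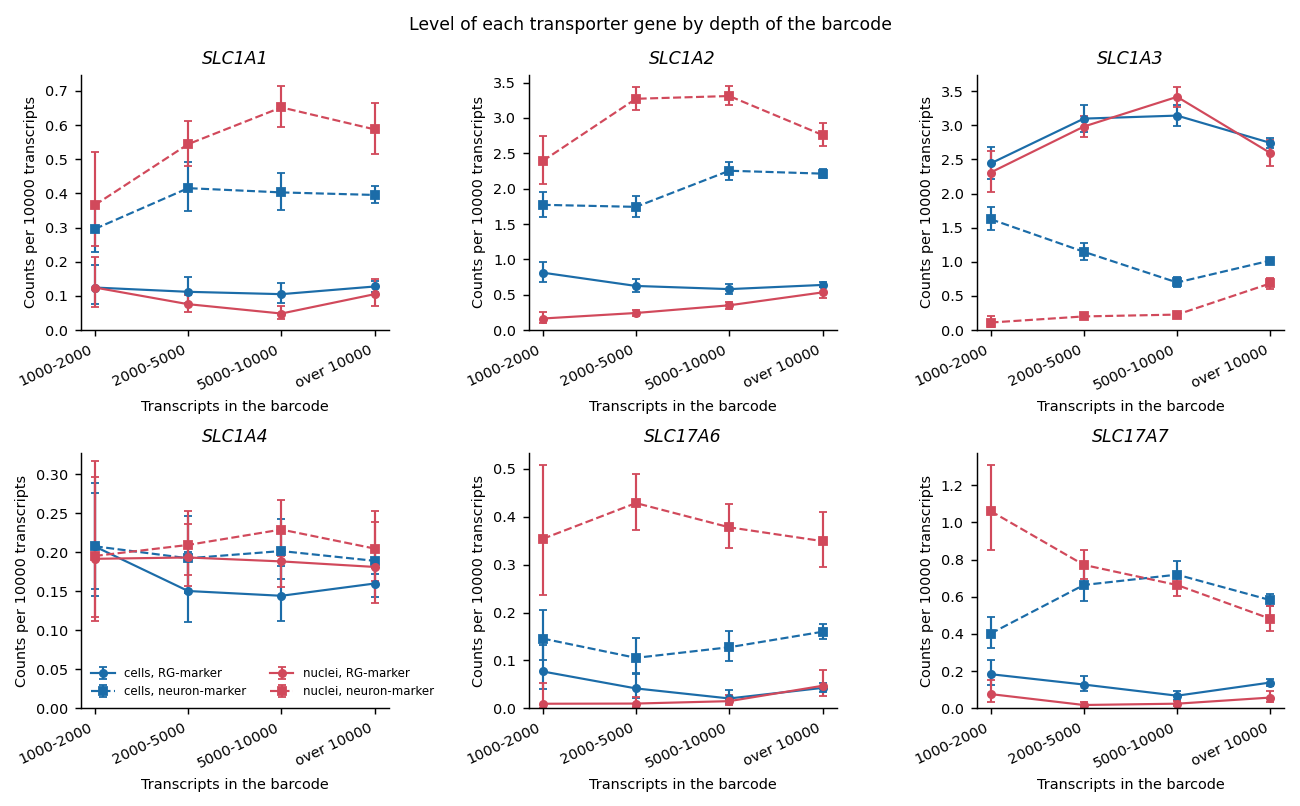
Level of each transporter gene (counts per 10000 transcripts) in RG-marker (solid lines, circles) and neuron-marker barcodes (dashed lines, squares) of cells (blue) and nuclei (red), by the number of transcripts in the barcode. Error bars are 95% exact Poisson intervals. The RG-marker and neuron-marker lines of SLC1A3 and SLC1A2 do not cross in any bin, and the neuron-marker SLC1A3 level is highest in the shallowest cells (1.63) and the deepest nuclei (0.684).

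Leiden clusters, built on variable genes without the members, gave the members a finer pattern. In nuclei, SLC1A3 ranged from 1.44 to 5.05 counts per 10000 over 8 RG-like clusters and from 0.122 to 0.237 over 4 neuron-like clusters. SLC1A2 ranged from 1.38 to 4.23 over the neuron-like and from 0.119 to 0.403 over the RG-like nucleus clusters. Neither range overlapped, and the RG-like cluster with the highest SLC1A3 level, cluster 7 with 1003 nuclei, was led by LINC01965, LRRTM3 and PDGFD, with 50.9% of its nuclei from 1 well. The IP-like nucleus cluster held 579 nuclei, with EOMES and DLL1 among its leading genes. There SLC1A2 stood at 0.953, above the RG-like clusters but under its free-RNA level of 1.08. SLC1A3 stood at 0.666, and SLC17A6 (0.00832) was within the range of the RG-like clusters. SLC17A7, at 0.0541 (0.0288 to 0.0925) from 13 counts, was near the top of the RG-like range of 0.00673 to 0.0563. That top value rests on 5 counts, and the next RG-like cluster stood at 0.0345. SLC1A1 stood at 0.0250 from 6 counts, under the RG-like range of 0.0281 to 0.113, whereas the IP-marker nuclei were above RG-marker nuclei. These levels, too, were under the free-RNA levels of their genes. The 47 IP-marker nuclei above were chosen by thinned markers and held the neuronal list at 30.9 counts per 10000. In cells, IP-like cluster 6, which carried 7 IP and no neuronal markers, held SLC17A7 at 0.129 (0.0786 to 0.199), under the free-RNA level, while IP-like clusters 9 and 20, with 4 neuronal markers each, held it at 0.522 and 0.426. Cluster 20 carried 3 IP markers at a median depth of 25915 transcripts, so its name is uncertain. SLC17A6 was highest in the 2 Cajal-Retzius-like nucleus clusters, at 0.806 and 0.928, against 0.269 to 0.370 in neuron-like clusters. The cluster at 0.806 (106 nuclei) carried 6 Cajal-Retzius markers. The cluster at 0.928 (731 nuclei) carried 3 of them and 4 neuronal markers, so its name is uncertain.

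In cells the SLC1A2 ranges did not overlap, at 0.379 to 1.35 over the RG-like and 1.52 to 3.29 over the neuron-like clusters. The ranges of the other members did. SLC1A3 ranged from 1.40 to 3.93 over 5 RG-like clusters and from 0.497 to 3.25 over 7 neuron-like clusters. Choroid plexus-like cluster 14 (132 cells, 93.9% from 1 well) stood at 3.44. The highest neuron-like values were 3.25 in cluster 13 (2001 cells, median 1447 transcripts) and 2.13 in cluster 12 (2240 cells, median 1565 transcripts). Both were named by 3 and 4 of the 10 neuronal markers, and the leading genes of cluster 13 were LINC01965, PTN, PTCHD4 and LIFR, with 78.8% of its cells from 1 well. Clusters 17 and 18, which carried 10 and 9 of the neuronal markers at median depths of 7394 and 6637 transcripts, held SLC1A3 at 0.561 and 0.787 and SLC1A2 at 3.29 and 1.97. Over the 3 neuron-like clusters with a median above 5000 transcripts SLC1A3 ranged from 0.497 to 0.787, and over the 4 with a median under 2000 from 1.04 to 3.25. LINC01965 was among the leading genes of clusters 12 and 13 and also of RG-like clusters in both libraries, so the names of both are uncertain, and depth and well cannot be told apart from type in these clusters.

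**Figure D4:**
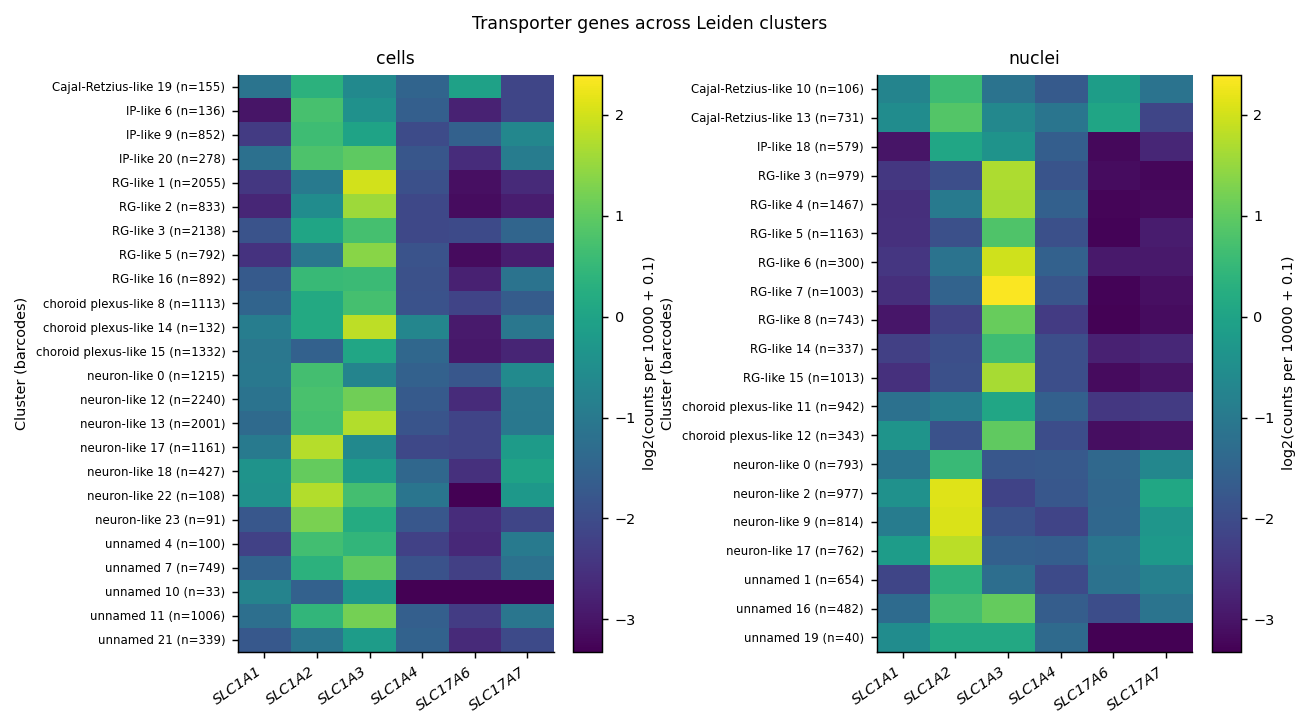
Level of the 6 transporter genes, as log2(counts per 10000 + 0.1), in 24 clusters of the cell library and 20 clusters of the nucleus library, ordered by name. In nuclei the SLC1A3 column is bright in the 8 RG-like clusters (1.44 to 5.05 counts per 10000) and dark in the 4 neuron-like clusters (0.122 to 0.237), while in cells the neuron-like clusters 12 and 13 are also bright (2.13 and 3.25).

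Across clusters, the SLC1A2 profile went with that of SLC17A7, with a Pearson correlation of 0.82 over 24 cell clusters and 0.87 over 20 nucleus clusters. SLC1A2 and SLC1A3, the pair grouped as glial transporters, had correlations of -0.18 and -0.84. SLC17A6 and SLC17A7 had 0.26 and 0.78. These are descriptions, since clusters of 1 library share its barcodes, free RNA and depth. Among 7778 genes considered in nuclei, the profiles most like SLC1A3 were those of PLEKHG1 (0.97), PLPP3 (0.95) and SHROOM3 (0.95), and for SLC17A7 those of TBR1 (0.98), BEGAIN (0.96) and THRA (0.96). TBR1, a transcription factor of deep-layer neurons, was one of the markers that named the classes. For SLC1A2 they were PHACTR3 (0.97), LINC01122 (0.96) and CHD3 (0.96), for SLC17A6 GAP43, a growth cone protein (0.92), SHISA6 (0.92) and KCNC2 (0.92), for SLC1A1 PDE4DIPP2 (0.96), PDE4DIP (0.95) and the splicing factor gene RBFOX1 (0.95), and for SLC1A4 MDGA2 (0.77), UNC5C (0.76) and PHYHIPL (0.74). In cells, over 8521 genes, the closest were SEZ6 for SLC17A7 (0.95), CREB5 for SLC1A3 (0.86), SLCO3A1 for SLC1A1 (0.87), PI4K2A for SLC1A4 (0.89) and the AMPA receptor subunit GRIA4 for SLC17A6 (0.83). RBFOX2 (0.92) and NEUROD6 (0.91), the latter a neuronal marker of the classes, were among the nearest 3 of SLC1A2. No gene was among the nearest 3 of a member in both libraries.

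Joint detection was asked at equal depth. A thinned transcript of SLC1A2 or SLC1A3 was found with one of SLC17A6 or SLC17A7 in 67 of 4265 neuron-marker cells, or 1.57% (1.22 to 1.99), where the product of the separate shares was 1.69%. In neuron-marker nuclei the share was 2.70% (2.18 to 3.31) and the product 2.76%, and in both-marker cells 1.46% (1.08 to 1.92) and 1.41%. In RG-marker barcodes it was 0.412% (0.231 to 0.679) of cells and 0.0612% (0.00741 to 0.221) of nuclei. Each interval held the product for its class, so the groups were seen together about as often as their shares give. Because SLC1A2 went with the neuron-marker class, the pairs were then taken apart, a choice made after the first values were seen. In neuron-marker nuclei SLC1A2 and SLC17A7 met in 56 barcodes, where the product of shares gives 56.3, while SLC1A3 met SLC17A7 in 3 (product 4.34). SLC1A2 and SLC1A3 met in 63 neuron-marker cells (product 80.0), 68 both-marker cells (product 70.9) and 8 neuron-marker nuclei (product 15), and SLC1A3 and SLC17A7 in 15 neuron-marker cells (product 24.3). SLC1A3 met SLC17A6 in 1 both-marker cell, where the product gives 6.12, and this product, 0.182% of barcodes, lay above the interval (0.000752 to 0.165). It was the only pair compared over the RG, neuron and both classes whose interval left out the product. Every pairing of SLC1A2, SLC1A3, SLC17A6 and SLC17A7 was compared in these classes of cells and nuclei, without correction for the number of comparisons. With this many intervals, 1 may leave out its product through counting error alone, so this case is not read as avoidance between the genes. For the pair of SLC1A2 and SLC1A3 in neuron-marker nuclei, 0.240% of barcodes (0.104 to 0.473), the product of 0.450% lay within the interval.

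The members were set beside 25 other glutamate handling genes. Of the 23 with enough counts in cells, 2 were at least 2 times higher in RG-marker cells, 1 in neuron-marker cells and 20 in neither, with a median log2 ratio of -0.09. In nuclei 22 had enough counts, of which 6 were past the fold on the RG side and 2 on the neuronal side, with a median of 0.10. Over all genes the shares on the RG and neuronal sides were 5.65% and 5.92% in cells and 15.3% and 11.5% in nuclei, and counts as small as these are not read as apart from them. The RG side in both libraries held KCNJ10, the inward rectifier potassium channel of glia, with log2 ratios of 1.47 (1.29 to 1.65) in cells and 3.00 (2.72 to 3.29) in nuclei. In nuclei it also held SLC1A5, a neutral amino acid exchanger (1.98), and SLC38A3, a glutamine carrier (2.12, from 34 and 9 counts). SLC25A13, a mitochondrial aspartate and glutamate carrier (1.72), and GLUL, glutamine synthetase (1.16), were there too. The ratios of these genes in cells, in this order, were 0.80, 0.999, 0.998 and 0.60, each short of the fold. On the neuronal side, GAD1 and GAD2, which make GABA from glutamate, had ratios of -2.50 and -1.88 in nuclei and -0.18 and -0.55 in cells, and both are markers of the inhibitory class, whose barcodes were set apart first. SLC1A7, a retinal transporter, stood at -1.19 in cells from 20 and 56 counts. Of the other SLC1 and SLC17 genes on the list, SLC1A6 stood at -0.09 and 0.00 and SLC17A8, the remaining vesicular transporter, at 0.16 and 0.91, neither past the fold.

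**Figure D5:**
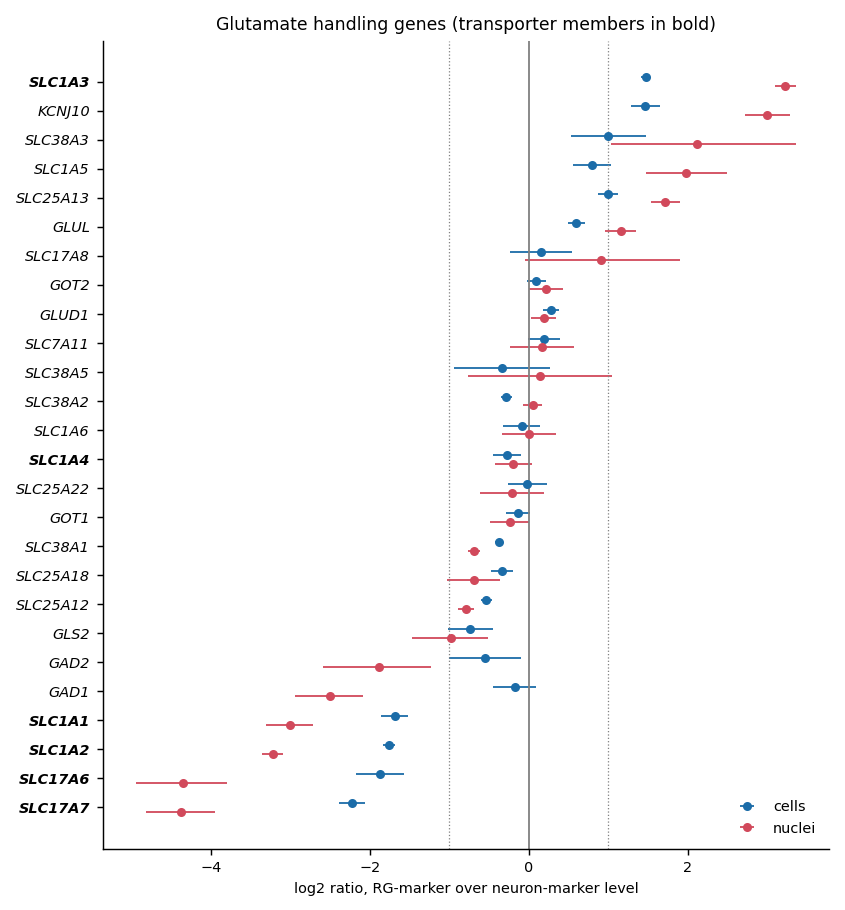
Log2 ratio of RG-marker over neuron-marker level for 26 transporter and other glutamate handling genes with enough counts in both libraries, in cells (blue) and nuclei (red), ordered by the value in nuclei. Bars are 95% exact intervals, dotted lines mark a 2-fold ratio and bold names the 6 members. SLC1A3 (1.47 and 3.23) tops the order, next to KCNJ10 (1.47 and 3.00), and SLC17A7 (-2.23 and -4.37) closes it.

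Levels of different genes were compared per kilobase of annotated exon, a scale of level and not of difference. The exon length was the union over all annotated transcripts of a gene. It was 22.8 kilobases for SLC1A2 and 21.2 for SLC1A3, against 3.97 for SLC1A1, 4.62 for SLC17A6, 5.99 for SLC17A7 and 6.94 for SLC1A4. The order of the members below depends on these lengths, and the transcripts in use were not determined. The counts are of transcripts, and before this division SLC1A2 was the highest member in neuron-marker nuclei. It stood there at 3.12 counts per 10000, against 0.591 for SLC1A1. In RG-marker cells SLC1A3 stood at 0.133 counts per 10000 per kilobase, and the other members between 0.00884 (SLC17A6) and 0.0306 (SLC1A1). In RG-marker nuclei the SLC1A3 value was 0.143 and the next, SLC1A4, 0.0272. In neuron-marker cells SLC17A7 (0.10), SLC1A1 (0.0987) and SLC1A2 (0.0941) were close to each other and above SLC1A3 (0.0480), SLC17A6 (0.0323) and SLC1A4 (0.0277). In neuron-marker nuclei the order was SLC1A1 (0.149), SLC1A2 (0.137), SLC17A7 (0.112), SLC17A6 (0.0834), SLC1A4 (0.0311) and SLC1A3 (0.0153). Reads from introns may be part of the counts, and per kilobase of the whole gene SLC17A7, the shortest gene, was the highest member in neuron-marker cells (0.0462) and nuclei (0.0517), followed by SLC1A2 (0.0127 and 0.0185). The top place of SLC1A3 in RG-marker barcodes held on this scale as well, at 0.0309 in cells and 0.0331 in nuclei.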

How the data were processed

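Split-seq libraries of whole cells (8 sub-libraries) and of nuclei (2 sub-libraries) were sequenced by the study. The deposited counts are unfiltered whole-number counts of transcripts per gene and barcode; the authors made them with the pipeline spipe on GRCh38 (the build is also in the submitters' processing notes). The study's later steps, doublet calling with scDblFinder and removal of contaminating RNA with DecontX, are not in these counts. The libraries held 254967545 transcripts in 1303455 barcodes (cells) and 82339738 in 197446 (nuclei).

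Barcodes were kept as stated in the report, and 157306492 and 72162726 transcripts remained. Markers were counted in 1000 transcripts drawn without replacement from each barcode. In order, barcodes with at least 2 choroid plexus, inhibitory, Cajal-Retzius or IP markers took that class; RG-marker barcodes had at least 2 RG markers and at least 2 more than neuronal markers, and the reverse for neuron-marker barcodes. Levels are pooled counts over pooled transcripts, with exact Poisson intervals; ratios have exact conditional binomial intervals and are given only where both counts exceed 3. Intervals cover counting error only. Over all genes, 0.5 was added to both counts and genes with under 20 counts were left out. Clusters used scanpy 1.11.5 (2000 variable genes, 30 principal components, 15 neighbours, Leiden resolution 1). Cluster names needed 3 markers. Scrublet, as run here, called 0 doublets in either library and so did not work; leaving out the 5% of cells and 3% of nuclei with the highest scores was an alternative. The functions for the ratios were run on counts simulated with counting error only. That run checks the code and says nothing of the spread between wells or organoids. Python 3.11.15, numpy 2.4.6 and scipy 1.17.1 were used.

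The 6 members, the marker lists and the list of 25 other genes were chosen with earlier results of these data known. Named genes are the members, these lists, and for each member the 3 genes of most similar profile over clusters with at least 0.2 counts per 10000. A few genes of the lists and results that need them are not reported here. The 8 alternatives are given in the closing section. No p-value was computed, since each library is 1 sample.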

Additional observations from a re-analysis of the deposited data

How the results depend on the processing

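The log2 ratio of RG-marker over neuron-marker level was recomputed for each member in each library under 8 alternatives. SLC1A3 stayed positive and SLC1A1, SLC1A2, SLC17A6 and SLC17A7 stayed negative in both libraries under each of them, and 28 values in cells and 26 in nuclei stayed within the counting interval of the reported value. SLC1A4 changed sign with thinned counts, to 0.02 in cells and 0.26 in nuclei. The other thinned values that moved were SLC1A3 1.17, SLC17A6 -0.90 and SLC17A7 -2.50 in cells, and SLC1A2 -3.54 and SLC1A3 3.98 in nuclei. With a margin of 1 marker between the lists, the values in cells were SLC1A1 -1.28, SLC1A2 -1.45, SLC1A3 1.16, SLC17A6 -1.28 and SLC17A7 -1.77, and in nuclei SLC1A1 -2.64, SLC1A2 -2.84, SLC1A3 2.50 and SLC17A7 -3.79. With a margin of 3 they were SLC1A1 -1.87, SLC1A2 -2.16, SLC1A3 1.85, SLC17A6 -2.21 and SLC17A7 -2.51 in cells, and SLC1A2 -3.66, SLC1A3 3.69, SLC17A6 -4.97 and SLC17A7 -5.21 in nuclei. With RG-like and neuron-like clusters in place of the classes they were SLC1A1 -1.89 and SLC1A3 1.35 in cells, and SLC1A2 -3.88, SLC1A3 4.08, SLC17A6 -5.06 and SLC17A7 -5.37 in nuclei. Above 5000 transcripts they were SLC1A3 1.56 in cells, and SLC1A2 -2.93 and SLC1A3 3.00 in nuclei. With wells weighted equally they were SLC1A2 -1.62, SLC1A3 1.96 and SLC1A4 -0.04 in cells, and SLC1A1 -2.57 and SLC1A2 -3.40 in nuclei. Without the barcodes of the highest doublet scores they were SLC1A2 -3.39, SLC1A3 3.48 and SLC17A7 -4.90 in nuclei. A mitochondrial limit of 10% moved none. The causes of these shifts were not tested.

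Each kind of material had 1 library, so organoid, day and condition cannot be told apart and there is no spread between organoids. Classes rest on thinned markers, and 1980 of 3638 RG-marker and 2014 of 4265 neuron-marker cells, and 2148 of 3268 RG-marker and 1340 of 3331 neuron-marker nuclei, had the smallest difference that the rule allows. The vesicular transporters in RG-marker barcodes rest on 28 to 361 counts. A class level under the free-RNA level is not read as expression of the gene in that class, nor as its absence. In cells the free-RNA level was close to the level over all kept barcodes for SLC1A3 (1.78 and 1.76) and SLC1A2 (1.22 and 1.21). These were further apart for SLC1A4 (0.163 and 0.194) in cells and SLC1A3 (1.47 and 1.73) in nuclei. Where they were close, a class under the free-RNA level was little more than a class below its library. The part of free RNA in each class was not tested. No paired analysis was possible because each kind has 1 library.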
